A study of Raphanus sativus with 8 samples.

Results

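The unigenes of the light-harvesting antenna were followed in whole shoots of 2 radish (Raphanus sativus) inbred lines, the early bolting NH-JS2 and the late bolting NH-JS1. A unigene is an assembled transcript sequence, and one was taken as an antenna unigene when its deposited Arabidopsis match was 1 of 19 loci that encode LHCA1 to LHCA6 of photosystem I or LHCB1 to LHCB6 of photosystem II, such as AT3G54890 (LHCA1), AT2G40100 (LHCB4.3) and AT1G19150 (LHCA6). This rule, which used annotation and no expression value, gave 45 of the 78395 unigenes in the table. The 8 libraries formed 4 groups of 2: NH-JS2_GA (NH-JS2 sprayed with gibberellin, GA), NH-JS2 (no GA), NH-JS1_GA (NH-JS1 sprayed with GA) and NH-JS1 (no GA). All plants had been vernalized briefly as seedlings and were harvested at the same time of day, 6 days after the spraying date. Per the labels, the sprayed shoots of both lines were at bolting stage and the others in vegetative growth. The paper reports, however, that sprayed NH-JS1 plants had not bolted when compared on a later day than this harvest. Whether the shoots had begun to bolt therefore cannot be told from the labels. Each library was made from pooled shoots of several plants, so the p-values below measure the spread between pools, and the treatment cannot be told apart from the labelled stage.

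Antenna proteins bind chlorophyll and carotenoids in the thylakoid membrane of the chloroplast and pass absorbed light energy to the reaction centres. LHCA proteins form a belt on one side of photosystem I, LHCB1, LHCB2 and LHCB3 form the trimers of the major light-harvesting complex II (LHCII), and LHCB4, LHCB5 and LHCB6 (CP29, CP26 and CP24) are monomers that connect these trimers with the photosystem II core. In green leaves their genes, which lie in the nucleus, are among the most strongly expressed, and in Arabidopsis they respond to light, the circadian clock and chloroplast signals.

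The 45 unigenes matched 14 of the 19 loci. LHCB6 had 8 unigenes, LHCB5 had 7, LHCB2.3 had 5, LHCA1 and LHCB1.4 had 4 each, LHCA2, LHCA3 and LHCB1.3 had 3 each, LHCA5 and LHCB4.3 had 2 each, and LHCA4, LHCA6, LHCB2.1 and LHCB3 had 1 each. No unigene of the table matched LHCB1.1, LHCB1.2, LHCB1.5, LHCB2.2 or LHCB4.1, while 2 unigenes that matched LHCB4.2 lay outside the rule. All 45 carried the chlorophyll a/b binding domain, which the rule did not use, and 18 other unigenes of the table carried it too. A KEGG orthology was given for 40 of the 45, with 11 different entries. Each entry was that of the protein named by the Arabidopsis match, with LHCA6 placed in the entry of LHCA2. For 38 of the 45 the best database match was a Brassica rapa gene, and the identity to the best match was 81.71% to 100%, with a median of 99.12%. Several unigenes of 1 locus can be copies, alleles or fragments that share reads, so each locus was also examined as the sum of its unigenes, and the unigenes of a locus are not independent of each other.

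All 45 antenna unigenes passed the filter on low counts and were tested, with deposited counts of 146 to 152398 per library. Library totals were 23757588 (NH-JS2 replicate 2) to 34165272 counts. Levels are given as CPM, the counts of a unigene per 1000000 counts of the library after scaling with TMM factors. They are not divided by transcript length, so they compare libraries and not genes. NH-JS2 replicate 2 stood apart from the other libraries. It had the highest level of 44 of the 45 antenna unigenes, and these lay a median 0.32 on the log2 scale above NH-JS2 replicate 1, where the median over all unigenes was -0.00. Leaf markers were high in this library too. The summed share of 17 unigenes of RBCS1B, RBCS3B, CA1 and RCA (4 of the 6 leaf loci listed) was 3.909% of its counts, against 1.959% to 2.476% in the other 7 libraries. Of the markers of other tissues, the root list was represented by IRT1 alone (1 of 6 loci, below 1 CPM in every library), and the floral organ list by AG (below 1 CPM in every library) and SEP3, 2 of 5 loci. SEP3 lay at 7.85 to 11.2 CPM in the 4 libraries of NH-JS2 and at 0.475 to 0.723 CPM in those of NH-JS1. Both senescence markers were present, SAG12 at 0.0356 to 1.41 CPM and SAG13 at 7.96 to 17.8 CPM. The part of the leaf content or condition of this library in the results below was not tested. Antenna values that moved most without NH-JS2 replicate 2 are given both ways. Fold changes of single unigenes outside the antenna are given with all libraries only, so how far they rest on it is not shown.

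The antenna unigenes together took 4.393% to 6.191% of all counts. Their share was 4.955% and 5.161% in NH-JS2_GA, 5.413% and 6.191% in NH-JS2, 4.393% and 5.095% in NH-JS1_GA, and 5.16% and 4.79% in NH-JS1. The highest share was in NH-JS2 replicate 2 and the lowest in NH-JS1_GA replicate 1, which also held the lowest level of 38 of the 45 unigenes. The ranges of the 4 libraries of each line overlapped. The major LHCII made up 63.55% to 67.04% of the antenna counts, the photosystem I antenna 17.69% to 20.31% and the minor antenna of photosystem II 14.88% to 16.57%. A share in bulk shoots cannot tell fewer cells of a type from less RNA per cell.

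**Figure D1:**
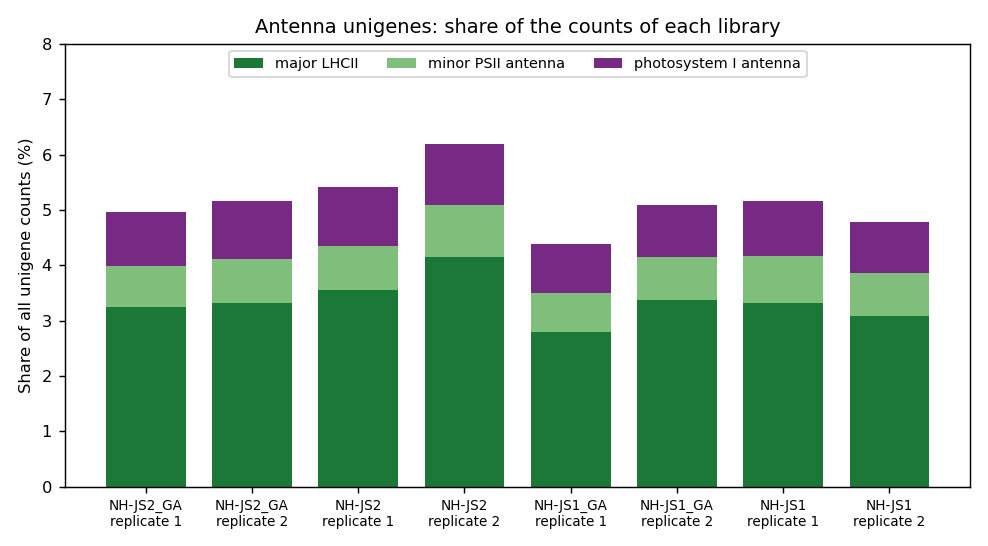
Share of all unigene counts (%, vertical axis) taken by the antenna unigenes in each of the 8 libraries (horizontal axis), stacked by photosystem I antenna, major LHCII and minor photosystem II antenna. The bars reach 6.191% in NH-JS2 replicate 2 and 4.393% in NH-JS1_GA replicate 1, and the order of the 3 classes is the same in every library.

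The first comparison asked how the early and the late bolting line differed without GA. The 3 main LHCA1 unigenes and both LHCB4.3 unigenes were higher in NH-JS2 than in the late bolting line, and no antenna unigene was lower. These 5 are 11.1% of the 45, whereas 30.2% of all 65934 unigenes tested were called in this comparison and 15.4% were called as higher (edgeR's quasi-likelihood test with Benjamini-Hochberg adjustment over all unigenes tested, adjusted p of at most 0.05, two-sided). In this edgeR fit the share called was below that of all unigenes, which did not hold for DESeq2 (counts below). A fold change above 1 was found for 44 of the 45, against 50.4% of all unigenes. Their median log2 fold change was 0.30 and that of all unigenes was 0.00, and it became 0.12 without NH-JS2 replicate 2 and 0.19 without NH-JS1 replicate 2. In 30 of the 45 both NH-JS2 libraries lay above both NH-JS1 libraries, a pattern found in 32.1% of all unigenes. When a library was left out, the number of all unigenes called changed as well. Counts from such fits, here and below, have no background share beside them. The number of antenna unigenes called depended on single libraries of the 4 compared. With NH-JS2 replicate 1 left out it was 24, with NH-JS1 replicate 1 left out it was 2, and with NH-JS1 replicate 2 left out it was 1. The 24 included the most abundant unigenes of LHCA5, LHCA6, LHCB1.3, LHCB1.4, LHCB2.1, LHCB2.3 and LHCB5. Of the 17 leaf marker unigenes 1 was higher in NH-JS2 (median log2 fold change 0.50), 15 were when NH-JS2 replicate 1 was left out (0.87), and 0 were in the other 7 fits that left out a library (0.01 for the one that left out NH-JS2 replicate 2). DESeq2 called 12 of the 45 antenna unigenes, against 14762 of all 78395. The study's criteria for a differentially expressed gene (DEG: absolute log2 fold change of at least 0.6, adjusted p of at most 0.01, mean scaled count of at least 500 in a group) were met by 2, both LHCA1, as higher, against 1.88% of all unigenes. That share is over all 65934 unigenes tested, including those with counts too low for the last criterion.

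With GA in both lines, the same 3 LHCA1 unigenes were higher in NH-JS2_GA than in the sprayed late bolting line, and LHCB4.3 did not pass the test. These 3 are 6.67% of the 45, against 28.7% of all unigenes called and 14.4% called as higher. The median log2 fold change was 0.17 for the antenna unigenes and -0.01 for all unigenes, and the first of these was 0.09 without NH-JS1_GA replicate 1, 0.10 without NH-JS2_GA replicate 2 and 0.27 without NH-JS1_GA replicate 2. In all 36 of the 45 were above 1 in fold change, against 49.5% of all. Both NH-JS2_GA libraries lay above both NH-JS1_GA libraries for 23 of the 45 (32.6% of all unigenes) and below them for 1, the LHCB6 unigene TBIU056921 (32.4% of all). Here the count was 9 without NH-JS2 replicate 1 and 11 (10 higher and 1 lower) without NH-JS2 replicate 2, although both libraries enter this comparison only through the shared estimate of spread and the scaling. LHCA5 TBIU003417 and both LHCB4.3 unigenes were called in either of these fits, and LHCB2.3 TBIU051339 without NH-JS2 replicate 2. With NH-JS1_GA replicate 1 or NH-JS2_GA replicate 2 left out, 1 unigene was called. None of the leaf markers was called (0 also at an unadjusted p under 0.05 by edgeR and by DESeq2), and their median log2 fold change was 0.15. DESeq2 called 6 of the 45 antenna unigenes, against 13356 of all 78395. By the study's criteria 1 LHCA1 unigene was higher, against 1.65% of all unigenes, again including those with counts too low to meet them. The comparisons with and without GA use different libraries but share that estimate of spread.

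**Figure D2:**
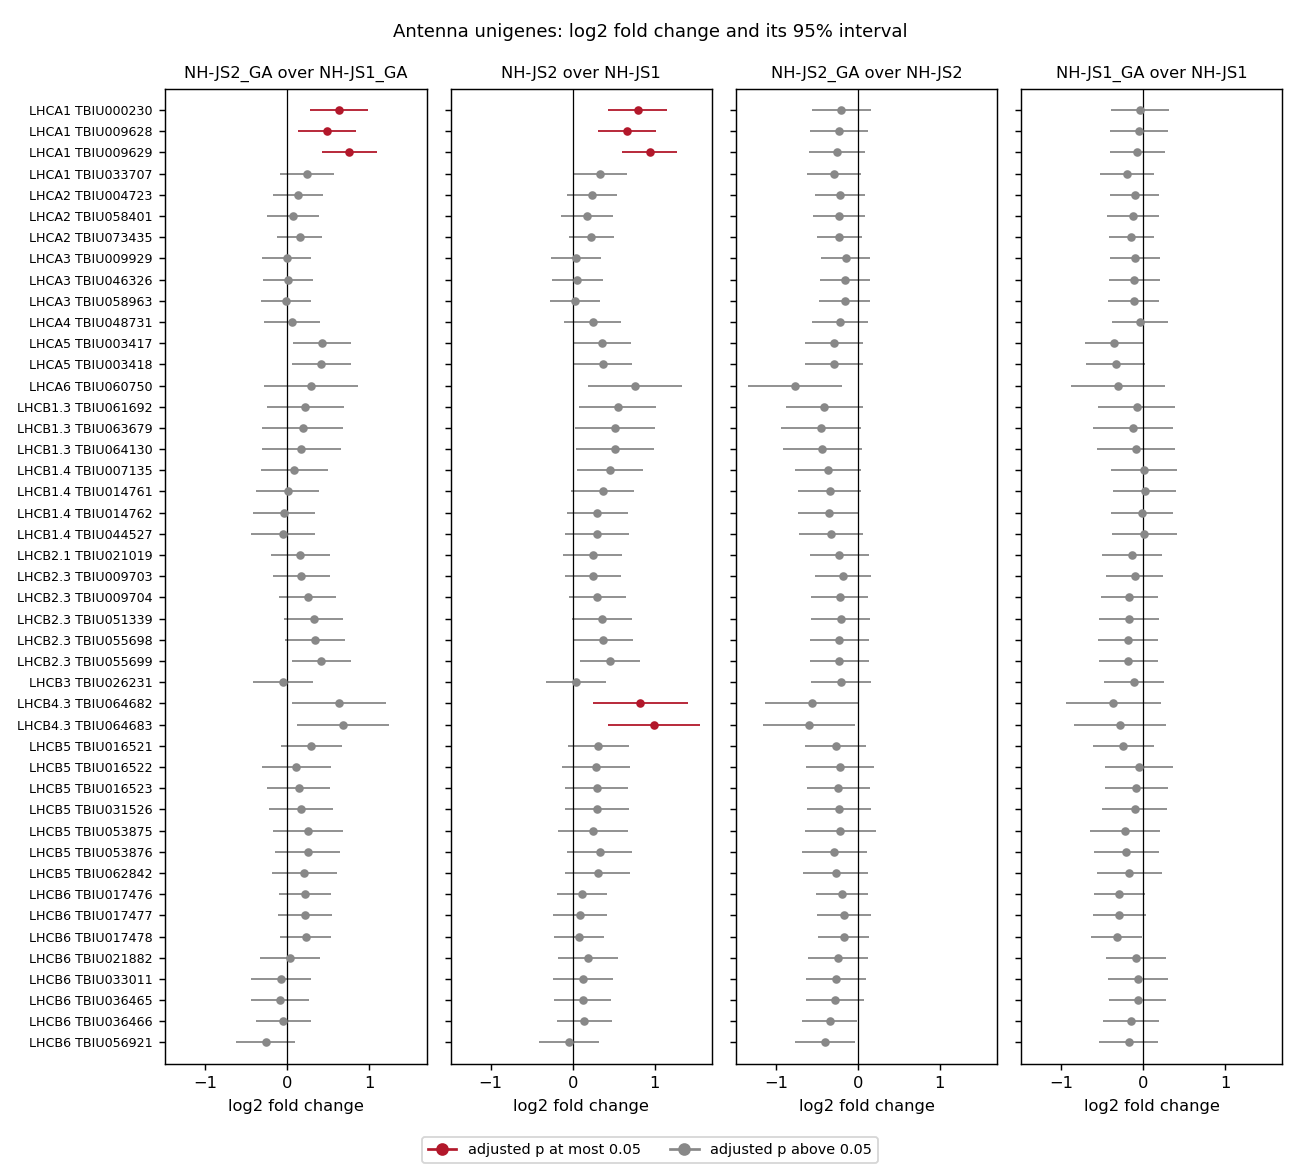
Log2 fold change (horizontal axes) of each of the 45 antenna unigenes (rows, named with their Arabidopsis match) with its 95% interval, in the line comparisons with and without GA and in the GA comparisons of each line, with unigenes of an adjusted p of at most 0.05 in red. Red points are 3 LHCA1 unigenes in both line comparisons and 2 LHCB4.3 unigenes without GA, and no point is red for GA.

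LHCA1 pairs with LHCA4 in the belt around photosystem I. Of its 4 unigenes 3 had the lowest adjusted p-values of the family in both line comparisons. TBIU009629 lay at 576 and 677 CPM in NH-JS2_GA and at 696 and 799.8 CPM in NH-JS2, against 349 and 394 CPM in NH-JS1_GA and 411 and 369.6 CPM in NH-JS1. Every library of NH-JS2 was above every library of NH-JS1. Without GA the level was 1.92-fold higher in NH-JS2 (log2 fold change 0.94, SE 0.15, 95% interval 0.60 to 1.28, edgeR's quasi-likelihood test with Benjamini-Hochberg adjustment, adjusted p = 0.00142). With GA it was 1.69-fold higher (log2 fold change 0.76, SE 0.15, 95% interval 0.42 to 1.09, edgeR adjusted p = 0.00481). This was the only antenna unigene called in both line comparisons whichever of the 8 libraries was left out, with log2 fold changes of 0.82 to 1.03 without GA and 0.63 to 0.88 with GA.

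TBIU000230, the most abundant LHCA1 unigene, lay at 1096 and 1301 CPM in NH-JS2_GA and at 1289.9 and 1467 CPM in NH-JS2, against 729 and 820.4 CPM in NH-JS1_GA and 852 and 739.7 CPM in NH-JS1. The lowest NH-JS2 library was above the highest NH-JS1 library. Its log2 fold change was 0.79 without GA (SE 0.16, edgeR adjusted p = 0.00491) and 0.63 with GA (SE 0.16, edgeR adjusted p = 0.016). The call was lost without NH-JS1 replicate 2 in the comparison without GA (edgeR adjusted p = 0.0743), and without NH-JS1_GA replicate 1 or NH-JS2_GA replicate 2 in the one with GA (edgeR adjusted p = 0.0961 and 0.112). TBIU009628 lay at 846 and 1019 CPM in NH-JS2_GA and at 1014 and 1167 CPM in NH-JS2, against 627 and 706 CPM in NH-JS1_GA and 729.5 and 647 CPM in NH-JS1. These values did not overlap between the lines either. Its log2 fold change was 0.66 without GA (SE 0.16, edgeR adjusted p = 0.0117) and 0.48 with GA (SE 0.16, edgeR adjusted p = 0.0474). Without GA the call was lost when NH-JS1 replicate 1 or NH-JS1 replicate 2 was left out (edgeR adjusted p = 0.0561 and 0.126), and with GA it was kept in 2 of 8 such fits, those without NH-JS2 replicate 1 or NH-JS2 replicate 2. The call with GA was lost as well with the replicate number as a block (edgeR adjusted p = 0.0625) and with no filter on low counts (edgeR adjusted p = 0.0576).

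The fourth LHCA1 unigene, TBIU033707, was closer between the lines. It lay at 302 and 342 CPM in NH-JS2_GA and at 361 and 425 CPM in NH-JS2, against 255 and 292 CPM in NH-JS1_GA and 327 and 297 CPM in NH-JS1. The groups did not overlap within either comparison, but NH-JS2_GA replicate 1 lay below NH-JS1 replicate 1. Its log2 fold change was 0.33 without GA (SE 0.14, edgeR adjusted p = 0.12) and 0.24 with GA (SE 0.14, edgeR adjusted p = 0.271). Summed over its 4 unigenes, LHCA1 was 1.62-fold higher in NH-JS2 without GA (log2 fold change 0.69, SE 0.13, edgeR adjusted p = 0.00363 over 26955 loci and unmatched unigenes) and 1.46-fold higher with GA (log2 fold change 0.54, SE 0.13, edgeR adjusted p = 0.0123). The call for the sum was lost without NH-JS1 replicate 2 in the comparison without GA (edgeR adjusted p = 0.0522), and without NH-JS1_GA replicate 1 or NH-JS2_GA replicate 2 in the one with GA (edgeR adjusted p = 0.0922 and 0.0908).

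**Figure D3:**
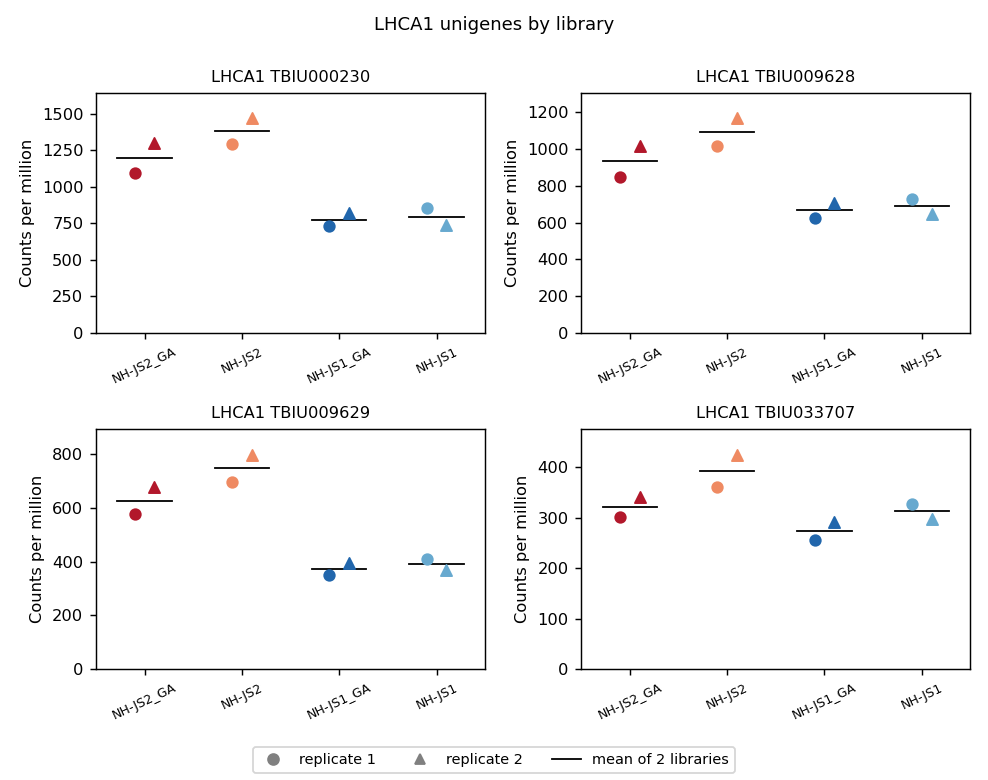
CPM (vertical axes) of the 4 LHCA1 unigenes in NH-JS2_GA, NH-JS2, NH-JS1_GA and NH-JS1 (horizontal axes), with a point for each library (circle for replicate 1, triangle for replicate 2) and a line at the mean of 2 libraries. For TBIU009629 the libraries of NH-JS2 lie between 576 and 799.8 CPM and those of NH-JS1 between 349 and 411 CPM, while for TBIU033707 the lines lie closer together.

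The LHCA1 counts were also divided differently among the unigenes in the lines. TBIU009629 held 20.28% to 20.73% of the LHCA1 counts in the 4 libraries of NH-JS2 and 17.72% to 18% in those of NH-JS1. For TBIU033707 these shares were 10.24% to 11.03% in NH-JS2 and 13.01% to 14.49% in NH-JS1. Over the family, 41 unigenes belonged to loci with more than 1 unigene. For 15 of them the share of the own locus separated the 4 libraries of NH-JS2 from the 4 of NH-JS1, 6 higher and 9 lower in NH-JS2. How often this occurs at loci outside the antenna was not counted, so it is not given as a trait of this family. Reads are mapped to unigenes of 1 reference, so sequence differences between the lines cannot be told apart from differences in RNA level here.

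LHCA1, LHCA2, LHCA3 and LHCA4 are the 4 proteins of the photosystem I belt, where LHCA2 pairs with LHCA3. Set against their summed counts, LHCA1 took 30.34% to 32.08% in the 4 libraries of NH-JS2 and 23.26% to 24.87% in those of NH-JS1. LHCA2 took 21.38% to 22.16% in NH-JS2 and 22.82% to 23.81% in NH-JS1. LHCA3 took 29.22% to 31.12% in NH-JS2 and 33.53% to 35.83% in NH-JS1, and LHCA4, which carries the chlorophylls of longest wavelength, took 16.52% to 16.96% in NH-JS2 and 17.37% to 18.32% in NH-JS1. All 4 shares separated the lines whether or not GA was given. These shares add up to a whole, so the higher share of 1 protein lowers the others, and no test was run on them. How often the shares within other gene families separate the lines was not counted.

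**Figure D4:**
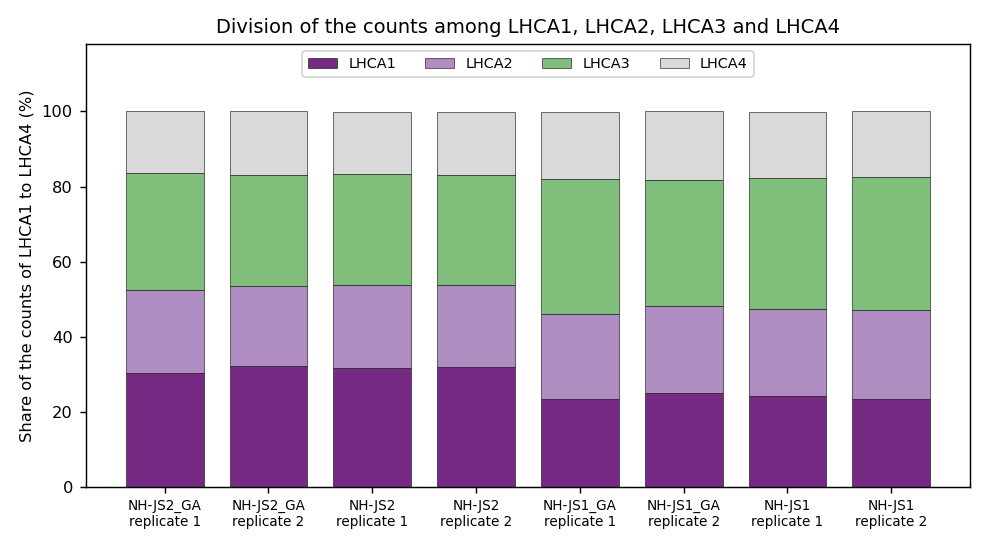
Division of the summed counts of LHCA1, LHCA2, LHCA3 and LHCA4 (%, vertical axis) in each of the 8 libraries (horizontal axis). The LHCA1 segment is 30.34% to 32.08% in the 4 libraries of NH-JS2 and 23.26% to 24.87% in the 4 libraries of NH-JS1, and the other 3 segments are smaller in NH-JS2.

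No unigene of LHCA2, LHCA3 or LHCA4 passed the test between the lines. The most abundant LHCA2 unigene, TBIU058401, lay at 1041 and 1126 CPM in NH-JS2_GA and at 1199.9 and 1343 CPM in NH-JS2, against 989 and 1081 CPM in NH-JS1_GA and 1169.6 and 1087 CPM in NH-JS1. The LHCA3 unigene TBIU058963 lay at 1098 and 1169.9 CPM in NH-JS2_GA and at 1187 and 1348 CPM in NH-JS2, against 1149 and 1142 CPM in NH-JS1_GA and 1274 and 1207 CPM in NH-JS1. For LHCA3 the lines overlapped in both comparisons, and the 3 unigenes had log2 fold changes of 0.03 to 0.06 without GA and -0.01 to 0.01 with GA. The 95% interval for TBIU058963 ran -0.28 to 0.34 without GA and -0.32 to 0.29 with GA. LHCA4 (TBIU048731) had log2 fold changes of 0.24 without GA (95% interval -0.10 to 0.59) and 0.06 with GA (95% interval -0.28 to 0.40). With NH-JS2 replicate 2 left out, the values without GA were 0.08 for TBIU058401 (0.17 with all libraries), -0.07 for TBIU058963 and 0.13 for TBIU048731.

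LHCA5 and LHCA6 are minor antenna proteins that in Arabidopsis link photosystem I to the NDH complex of cyclic electron transport. TBIU003417, the more abundant of the 2 LHCA5 unigenes, lay at 62.1 and 69.5 CPM in NH-JS2_GA and at 67.6 and 93.4 CPM in NH-JS2, against 48.1 and 50.3 CPM in NH-JS1_GA and 66.1 and 59.4 CPM in NH-JS1. The groups did not overlap in either line comparison, and the log2 fold changes of 0.36 and 0.42 without and with GA missed the threshold (edgeR adjusted p = 0.123 and 0.0794). The first was 0.10 when NH-JS2 replicate 2 was left out, and the second passed with only the groups compared in the fit (edgeR adjusted p = 0.025). LHCA6 (TBIU060750) lay at 53.4 and 64.2 CPM in NH-JS2_GA and at 70.5 and 130.1 CPM in NH-JS2, against 43.4 and 52.7 CPM in NH-JS1_GA and 61.9 and 56.8 CPM in NH-JS1. The single high value was that of NH-JS2 replicate 2. Between the lines the log2 fold change was 0.76 without GA (edgeR adjusted p = 0.0511) and 0.29 with GA (edgeR adjusted p = 0.448), and without NH-JS2 replicate 2 the first of these was 0.24. Without NH-JS2 replicate 1, which leaves the high library alone in its group, this comparison passed the test (edgeR adjusted p = 0.00114). It also passed with DESeq2 (adjusted p = 0.00462) and with the replicate number as a block (edgeR adjusted p = 0.0402).

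None of the 14 unigenes of the major LHCII proteins passed edgeR's test between the lines. Without GA 13 of the 14 had both NH-JS2 libraries above both NH-JS1 libraries, a pattern found in 32.1% of all unigenes. With GA 6 of the 14 did, against 32.6% of all unigenes. The log2 fold changes of the 14 were 0.04 to 0.55 without GA and -0.06 to 0.42 with GA. LHCB1 and LHCB2 are the phosphorylated subunits that move between the photosystems in state transitions. The LHCB1.3 unigene TBIU064130 lay at 3783 and 3805 CPM in NH-JS2_GA and at 4211 and 6027 CPM in NH-JS2, against 2934 and 3802 CPM in NH-JS1_GA and 3790.2 and 3373 CPM in NH-JS1. Here too NH-JS2 replicate 2 was far above the rest. The log2 fold change was 0.52 without GA (edgeR adjusted p = 0.101) and 0.17 with GA (edgeR adjusted p = 0.601). DESeq2 called the difference without GA (adjusted p = 0.0192), and leaving out NH-JS2 replicate 2 brought it to 0.22.

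The LHCB1.4 unigene TBIU007135 had the highest level of the 45 in all 8 libraries, with 4474 and 4591 CPM in NH-JS2_GA and 5093 and 6565 CPM in NH-JS2, against 3917 and 4629.5 CPM in NH-JS1_GA and 4410.2 and 4081 CPM in NH-JS1. The line difference on the log2 scale was 0.46 without GA, which DESeq2 called (adjusted p = 0.0141), and 0.09 with GA. The first of these was 0.25 when NH-JS2 replicate 2 was left out. The 5 LHCB2.3 unigenes ranged from 0.25 to 0.46 without GA and from 0.17 to 0.42 with GA on the log2 scale. TBIU051339 was the most abundant of these, at 1786 and 1917 CPM in NH-JS2_GA and 1917 and 2367 CPM in NH-JS2, against 1374 and 1594 CPM in NH-JS1_GA and 1724 and 1620.3 CPM in NH-JS1, and its groups did not overlap in either line comparison. Without GA the log2 fold change of TBIU051339 was 0.36, or 0.19 when NH-JS2 replicate 2 was left out. The single LHCB2.1 unigene, TBIU021019, had log2 fold changes of 0.25 and 0.16 without and with GA, and the first was 0.07 when NH-JS2 replicate 2 was left out. LHCB3, the third subunit of the trimers that sit close to LHCB6, overlapped between the lines, with log2 fold changes of 0.04 (95% interval -0.32 to 0.41) and -0.06 (95% interval -0.42 to 0.31). The summed LHCB1 counts were 2.236 to 2.729 times the LHCB2 counts over the 8 libraries, and the photosystem II antenna counts were 3.924 to 4.652 times those of photosystem I.

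Among the minor antenna proteins, LHCB4.3, an LHCB4 isoform that is also called LHCB8 in Arabidopsis, differed between the lines. TBIU064683 lay at 172 and 187 CPM in NH-JS2_GA and at 194 and 349 CPM in NH-JS2, against 102 and 123 CPM in NH-JS1_GA and 147 and 126 CPM in NH-JS1. All 4 libraries of NH-JS2 were above all 4 of NH-JS1, and NH-JS2 replicate 2 was far above the other 3 of its line. Without GA the level was 1.99-fold higher in NH-JS2 (log2 fold change 0.99, SE 0.25, 95% interval 0.43 to 1.55, edgeR adjusted p = 0.0151). Without NH-JS2 replicate 2 the log2 fold change was 0.49, still called (edgeR adjusted p = 0.0433), and the call was lost without NH-JS1 replicate 1 or NH-JS1 replicate 2 (edgeR adjusted p = 0.057 and 0.114). With GA the log2 fold change was 0.68 (SE 0.25, edgeR adjusted p = 0.0717), which passed with DESeq2 (adjusted p = 0.00888) and with only the groups compared in the fit (edgeR adjusted p = 0.00751).

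The second LHCB4.3 unigene, TBIU064682, lay at 88.4 and 97.6 CPM in NH-JS2_GA and at 94.6 and 179 CPM in NH-JS2, against 56.5 and 63.7 CPM in NH-JS1_GA and 83.5 and 70.9 CPM in NH-JS1. Its log2 fold change without GA was 0.83 (SE 0.25, edgeR adjusted p = 0.0376), which became 0.28 without NH-JS2 replicate 2 (edgeR adjusted p = 0.186). The call held in 1 of the 8 fits that left out a library, the one without NH-JS2 replicate 1, and was lost with only the groups compared in the fit (edgeR adjusted p = 0.088). With GA the log2 fold change was 0.63 (edgeR adjusted p = 0.101), which passed with DESeq2 (adjusted p = 0.0249) and with only the groups compared (edgeR adjusted p = 0.00601). As a sum of both unigenes LHCB4.3 had a log2 fold change of 0.90 without GA (SE 0.25, edgeR adjusted p = 0.023) and 0.64 with GA (SE 0.24, edgeR adjusted p = 0.0826). Without NH-JS2 replicate 2 the first was 0.42 (edgeR adjusted p = 0.0688), and the call was lost as well without NH-JS1 replicate 1 or NH-JS1 replicate 2 (edgeR adjusted p = 0.0728 and 0.145). The second passed the test when NH-JS2 replicate 1 or NH-JS2 replicate 2 was left out (edgeR adjusted p = 0.00545 and 0.00532).

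**Figure D5:**
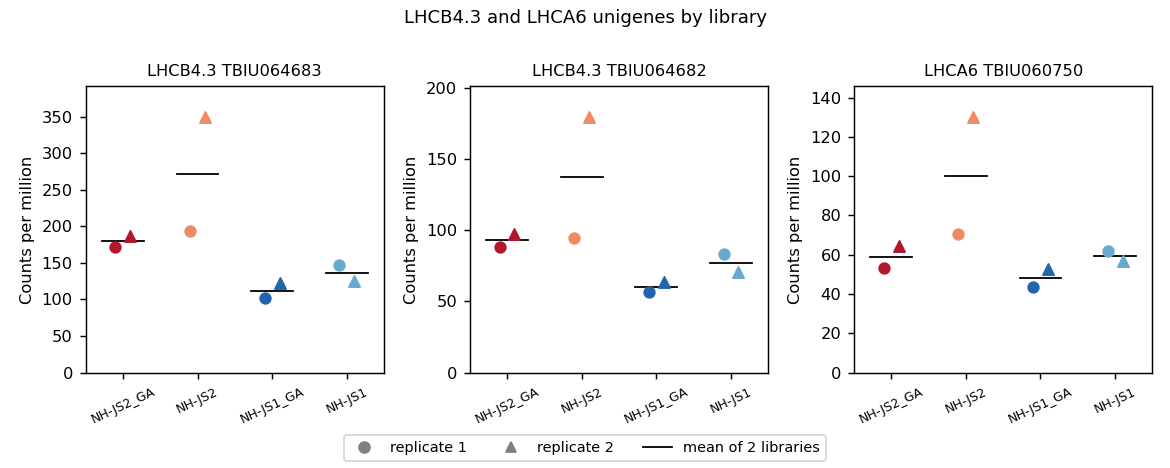
CPM (vertical axes) of the 2 LHCB4.3 unigenes and the LHCA6 unigene in NH-JS2_GA, NH-JS2, NH-JS1_GA and NH-JS1 (horizontal axes), with a point for each library (circle for replicate 1, triangle for replicate 2) and a line at the mean of 2 libraries. In each panel NH-JS2 replicate 2 is the highest point, at 349, 179 and 130.1 CPM, and the other NH-JS2 libraries of LHCB4.3 still lie above all those of NH-JS1.

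LHCB5 and LHCB6 did not pass the test in either line comparison. The 7 LHCB5 unigenes had log2 fold changes of 0.25 to 0.33 without GA and 0.11 to 0.29 with GA. TBIU062842 was the most abundant, at 1763 and 2049 CPM in NH-JS2_GA and 2013 and 2572 CPM in NH-JS2, against 1586 and 1713 CPM in NH-JS1_GA and 1999 and 1710.1 CPM in NH-JS1. Without GA this unigene had a log2 fold change of 0.31, or 0.11 when NH-JS2 replicate 2 was left out. The 8 LHCB6 unigenes lay on both sides of 0, from -0.04 to 0.19 without GA and from -0.27 to 0.22 with GA on the log2 scale. TBIU056921 lay at 763 and 760.8 CPM in NH-JS2_GA and at 864 and 1143 CPM in NH-JS2, against 871 and 961 CPM in NH-JS1_GA and 1049 and 1019 CPM in NH-JS1. With GA both NH-JS2_GA libraries were below both NH-JS1_GA libraries (log2 fold change -0.27, SE 0.16, edgeR adjusted p = 0.262), and without NH-JS2 replicate 2 the same value passed the test (edgeR adjusted p = 0.0498). The 3 LHCB6 unigenes of lowest level, TBIU017476, TBIU017477 and TBIU017478, kept nearly fixed ratios to each other over the 8 libraries, 1.024 to 1.08 for the second over the first and 1.091 to 1.134 for the third over the first.

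By locus, 2 of the 14 sums were called without GA (32.9% of all loci and unmatched unigenes) and 1 of the 14 with GA (31.1% of all), LHCA1 in both and LHCB4.3 without GA. As shares of all antenna counts, 5 of the 14 loci separated the 4 libraries of NH-JS2 from the 4 of NH-JS1, and 9 overlapped. How often loci of other gene families separate the lines in this way was not counted, so this number has no background beside it. LHCA1 (5.514% to 6.381% in NH-JS2 and 4.455% to 4.649% in NH-JS1) and LHCB4.3 (0.5228% to 0.7557% in NH-JS2 and 0.375% to 0.4522% in NH-JS1) had the higher shares in NH-JS2. LHCA3 (5.042% to 5.916% in NH-JS2 and 6.084% to 7.163% in NH-JS1), LHCB3 (1.232% to 1.589% in NH-JS2 and 1.661% to 1.805% in NH-JS1) and LHCB6 (4.897% to 5.198% in NH-JS2 and 6.011% to 6.286% in NH-JS1) had the lower ones. This division is a description with no test, and it does not depend on the scaling of the libraries.

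The next comparisons asked how shoots sprayed with GA differed from unsprayed shoots of the same line. In NH-JS2 no antenna unigene passed the test, by edgeR's quasi-likelihood test or by DESeq2, where 0.0637% of all unigenes were called. All 45 nevertheless had a fold change below 1, against 50.9% of all unigenes, with a median log2 fold change of -0.24 (all unigenes -0.01) and a range of -0.77 to -0.15. Both NH-JS2_GA libraries lay below both NH-JS2 libraries for 31 of the 45, a pattern found in 19.7% of all unigenes, and in no case above them. At an unadjusted p under 0.05 by edgeR 4 of the 45 were lower, against 5.03% of all unigenes by edgeR, and by DESeq2 13 were. The share of all unigenes at this threshold by DESeq2 was not counted, so such DESeq2 counts, here and below, have no background beside them. By edgeR the lower unigenes are named next. The 4 were LHCA6 (log2 fold change -0.77), the LHCB4.3 unigene TBIU064683 (-0.60) and the LHCB6 unigenes TBIU056921 (-0.40) and TBIU036466 (-0.34). When NH-JS2 replicate 2 was left out these values were -0.25, -0.10, -0.17 and -0.15.

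The values for GA in NH-JS2 rested in part on NH-JS2 replicate 2. Without it the median log2 fold change was -0.10, and without NH-JS2 replicate 1 it was -0.37, with 3 unigenes called as lower, LHCA6 (log2 fold change -1.14) among them. The leaf markers moved in the same direction, with a fold change below 1 for 17 of 17 unigenes and a median log2 fold change of -0.51, and 0 of them passed the test (5 were lower at an unadjusted p under 0.05 by edgeR, 13 by DESeq2, with 0 past the adjusted threshold in either). Without NH-JS2 replicate 1, 9 of the 17 were called as lower. Their share of counts was 2.276% and 2.445% in NH-JS2_GA and 2.424% and 3.909% in NH-JS2. Whether leaf content had a part in the antenna values was not tested.

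In NH-JS1 GA called no antenna unigene either, by edgeR or DESeq2, where 0.0819% of all unigenes were called by edgeR. A fold change below 1 was found for 42 of the 45, against 49.7% of all unigenes, with a median log2 fold change of -0.12 (all unigenes 0.00). This median became -0.06 (NH-JS1 replicate 1 left out), -0.07 (NH-JS1_GA replicate 1), -0.21 (NH-JS1 replicate 2) or -0.24 (NH-JS1_GA replicate 2). Both NH-JS1_GA libraries lay below both NH-JS1 libraries for 22 of the 45, against 22.1% of all unigenes. Only the LHCB6 unigene TBIU017478 (log2 fold change -0.32) had an unadjusted p under 0.05 by edgeR, where 4.75% of all unigenes were lower, and by DESeq2 2 unigenes did. The 3 unigenes with a fold change above 1 were all LHCB1.4, with log2 fold changes of up to 0.02. Leaf markers had a median log2 fold change of -0.20 in this comparison, with 16 of 17 unigenes below 1.

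LHCA1 had a log2 fold change of -0.21 for GA in NH-JS2 (95% interval -0.50 to 0.08) and -0.06 in NH-JS1 (95% interval -0.35 to 0.23) as the sum of its unigenes. For LHCB4.3 these were -0.56 in NH-JS2 (95% interval -1.12 to 0.00) and -0.30 in NH-JS1 (95% interval -0.86 to 0.26). The value for LHCB4.3 in NH-JS2 was -0.08 when NH-JS2 replicate 2 was left out and -0.94 when NH-JS2 replicate 1 was, and that in NH-JS1 was -0.18 when NH-JS1 replicate 1 was. For LHCA1 in NH-JS2 single libraries moved the value to -0.34 (NH-JS2_GA replicate 2 left out) and -0.10 (NH-JS2_GA replicate 1 left out), and it was -0.12 with NH-JS2 replicate 2 left out. The intervals of the single antenna unigenes reached a median 0.36 to either side of the log2 fold change, with 2 libraries a group. They are not adjusted for the number of unigenes tested, so changes larger than this could be missed as well. In NH-JS2, values for GA of -0.77 (LHCA6) and -0.40 (LHCB6 TBIU056921) were not called (edgeR adjusted p = 0.504 and 0.544).

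The GA effect in NH-JS2 minus that in NH-JS1 was not called for any of the 45 (0.0592% of all unigenes were called), and none had an unadjusted p under 0.05 by edgeR or an adjusted p past the threshold by DESeq2. It was below 0 for 39 of the 45 (50.9% of all unigenes), with a median of -0.12 on the log2 scale, and the median became 0.04 without NH-JS2 replicate 2 and 0.01 without NH-JS2_GA replicate 1, with 16 and 22 of the 45 below 0. The half-width of its 95% interval was a median 0.51. This difference and the 4 comparisons above share libraries, so their values are not independent of each other.

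Genes that act with the antenna were counted in the same fit. Of the nuclear subunits of photosystem I, 7 of 32 unigenes were higher in NH-JS2 without GA and 4 with GA, and none was lower, where 15.4% and 14.4% of all unigenes were called as higher. PSAF, the docking subunit for plastocyanin, had a unigene (TBIU013511) at 853 and 885 CPM in NH-JS2_GA and 933 and 1204 CPM in NH-JS2, against 451 and 496 CPM in NH-JS1_GA and 568 and 513 CPM in NH-JS1. Its log2 fold changes were 0.98 without GA and 0.88 with GA (edgeR adjusted p = 0.00148 and 0.00288). The PSAH2 unigene TBIU043775 (0.88 and 0.84) and the PSAH1 unigene TBIU043774 (0.61 and 0.56), copies of the subunit where LHCII docks on photosystem I, were higher too. When a library was left out, the count without GA was 2 (NH-JS1 replicate 2), 3 (NH-JS1 replicate 1), 4 (NH-JS2 replicate 2 or either NH-JS2_GA library) or 12 (NH-JS2 replicate 1). The count with GA was 2 (NH-JS1_GA replicate 1 or NH-JS2_GA replicate 2), 6 (NH-JS2 replicate 1) or 7 (NH-JS2 replicate 2), and the other fits were within 1.5 times.

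Of the nuclear subunits of photosystem II, 1 of 29 unigenes was higher and 1 lower in NH-JS2, without GA and with GA (14.8% of all unigenes were called as lower without GA and 14.3% with GA). The PSBO1 unigene TBIU030036, a subunit of the oxygen-evolving complex, had log2 fold changes of 0.56 and 0.65. PSBTN (TBIU052432) was at 1.35 and 1.91 CPM in NH-JS2_GA and 2.21 and 3 CPM in NH-JS2, against 9.18 and 9.61 CPM in NH-JS1_GA and 12.9 and 11.8 CPM in NH-JS1, and had log2 fold changes of -2.26 without GA and -2.52 with GA (edgeR adjusted p = 2.39e-05 and 1.63e-05). Of the relatives of the antenna proteins, which have related membrane helices, 7 of 24 unigenes were higher without GA (15.4% of all) and 3 with GA (14.4% of all). The ELIP1 unigene TBIU018051, of an early light-induced protein, lay at 5.09 and 6.04 CPM in NH-JS2_GA and 8.36 and 7.9 CPM in NH-JS2, against 1.46 and 1.03 CPM in NH-JS1_GA and 1.36 and 1.204 CPM in NH-JS1. Its log2 fold changes were 2.66 and 2.16 (edgeR adjusted p = 1.02e-05 and 4.42e-05). SEP1, here the stress-enhanced protein of the thylakoid (TBIU037425, 0.64 and 0.59) and, without GA, OHP1 (TBIU038029, 0.60) were higher as well. With NH-JS2 replicate 1 left out, 9 photosystem II subunit unigenes and 11 of the relatives were higher without GA, and 1 of each was lower. With NH-JS2 replicate 2 left out, 3 photosystem II subunit unigenes were lower without GA. The count of 7 relatives became 2 with NH-JS2 replicate 2 or either NH-JS1 library left out, and without NH-JS1 replicate 2 no photosystem II subunit was higher. With GA the relatives counted 7 and the photosystem II subunits 2 higher and 2 lower when either NH-JS2 library was left out.

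The factors that insert antenna proteins into the thylakoid membrane and the kinases and phosphatase that modify them had 7 of 16 unigenes higher in NH-JS2 without GA (15.4% of all) and 4 with GA (14.4% of all). The unigenes of largest fold change were 3 of CPFTSY, the receptor of the chloroplast signal recognition particle, TBIU033378 (1.36 and 1.11), TBIU021999 (1.04 and 0.71) and TBIU019111 (1.03 and 0.76). TBIU019111 lay at 42.5 and 46.3 CPM in NH-JS2_GA and 47.1 and 72.1 CPM in NH-JS2, against 24.5 and 28.1 CPM in NH-JS1_GA and 30.1 and 28.2 CPM in NH-JS1. Leaving out a library changed the count without GA to 4 (NH-JS1 replicate 2) or 13 (NH-JS2 replicate 1). The count with GA became 0 (NH-JS1_GA replicate 1 or NH-JS2_GA replicate 2), 2 (NH-JS1_GA replicate 2) or 7 (either NH-JS2 library).

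Of the transcription factors known in Arabidopsis to act on antenna genes, 4 of 21 unigenes were lower in NH-JS2 without GA (14.8% of all). None was called with GA, by edgeR or DESeq2. At an unadjusted p under 0.05 by edgeR, 15 of the 21 were lower and 0 higher without GA (19.5% of all were lower). With GA 5 were lower and 1 higher (19.1% and 19.5% of all). Without GA 19 of the 21 had a fold change below 1 (49.6% of all). GLK1, which promotes antenna and chlorophyll synthesis genes, had a unigene (TBIU003482) at 59.6 and 82.2 CPM in NH-JS2_GA and 47.4 and 48.6 CPM in NH-JS2, against 88.8 and 89.3 CPM in NH-JS1_GA and 97.1 and 99 CPM in NH-JS1. Its log2 fold change was -1.03 without GA (edgeR adjusted p = 0.000826) and -0.33 with GA (edgeR adjusted p = 0.137). For this unigene the GA effect in NH-JS2 minus that in NH-JS1 was 0.70 (edgeR adjusted p = 1). The other 3 called without GA were HY5 unigenes, TBIU008058 (-0.62 without GA) and 2 near the lowest deposited count, TBIU063806 and TBIU063807. These 2 were each at 0.0357 and 0.0476 CPM in NH-JS2 and at 0.289 to 0.444 CPM in NH-JS1, so their fold change is not given. The count of 4 became 1 with NH-JS1 replicate 2 or NH-JS2 replicate 1 left out. With GA, 1 unigene was called as lower and 1 as higher without NH-JS1_GA replicate 1, 1 as lower without NH-JS2_GA replicate 2, and 1 as higher when either NH-JS2 library was left out.

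For GA, none of the 5 lists had a unigene past the threshold by edgeR in either line. At an unadjusted p under 0.05 by edgeR, GA in NH-JS2 gave 5.03% of all unigenes as lower and 3.74% as higher. Lower were 8 of 32 unigenes of the photosystem I subunits and 10 of 29 of the photosystem II subunits. So were 9 of 24 of the relatives and 6 of 16 of the insertion and phosphorylation factors, while 3 of 21 of the transcription factors were higher. GA in NH-JS1 gave 6, 13, 5, 0 and 0 in the same order, all lower, against 4.75% of all unigenes. Unigenes of 1 locus are not independent of each other. DESeq2 called 2 photosystem II subunit unigenes and 1 unigene of the relatives as lower for GA in NH-JS2, and none in NH-JS1, and edgeR called 1 in each of these lists without NH-JS2 replicate 1. The median log2 fold changes for GA were -0.29 in NH-JS2 and -0.22 in NH-JS1 for the photosystem I subunits, and -0.33 in NH-JS2 and -0.31 in NH-JS1 for the photosystem II subunits. In NH-JS2 these became -0.15 and -0.13 when NH-JS2 replicate 2 was left out, and the second -0.51 when NH-JS2 replicate 1 was. In NH-JS1 the photosystem I median became -0.14 when NH-JS1 replicate 1 was left out.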

How the data were processed

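RNA of whole shoots was sequenced in 8 libraries of 4 groups (2 each). Per the study's methods, the authors trimmed the reads, assembled radish unigenes with the coding sequences of a radish genome as guide, mapped the reads to them with Bowtie2 2.1.0 (the submitters' notes also name TopHat) and deposited 1 read count per unigene and library. No count was below 1, so a count of 1 is the floor of the table. The deposited percent identity to the best database match, the Arabidopsis match, the domains and the KEGG orthology are annotation by the authors. The deposited normalized counts and the log2 fold change columns of the authors' own comparisons were not used. Library totals were 23757588 to 34165272 counts. Multiply mapping reads can be divided among copies of a gene.

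Counts were tested with edgeR 4.0.16 (R 4.3.3): filterByExpr by group, TMM, quasi-likelihood fit with 1 mean per group over all 8 libraries (common dispersion 0.0171), two-sided, Benjamini-Hochberg adjustment over 65934 unigenes, call at an adjusted p of at most 0.05. Counts summed per Arabidopsis locus were fitted in the same way over 26955 loci and unmatched unigenes. Alternatives were DESeq2 1.42.0, its size factors in edgeR, no filter, 1 subtracted from every count, only the groups compared, a replicate block, each library left out, and the study's criteria (absolute log2 fold change of at least 0.6, adjusted p of at most 0.01, mean scaled count of at least 500). The fit was tested on simulated data with the same dispersion for every unigene and changes planted between the lines only. Changes as small as those of the antenna unigenes, and a library that stands apart, were not simulated. The unigenes named are the most abundant of each locus and those called. For other lists they are at most 3 per comparison, the called ones of largest fold change, and TBIU033707, TBIU017476, TBIU017477, TBIU017478 and TBIU036466 were named after their values were seen. The members and lists were chosen with earlier results of these data known. No sequence is printed, since no file used here pairs unigenes with sequences.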

Additional observations from a re-analysis of the deposited data

How the results depend on the processing

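The count of antenna unigenes called between the lines without GA was 5. It was 12 with DESeq2, 2 with the study's criteria and 2 of 14 with counts summed per locus, and it ran from 1 (without NH-JS1 replicate 2) to 24 (without NH-JS2 replicate 1) when single libraries were left out. With GA the count of 3 was 6 with DESeq2, 7 with only the groups compared in the fit, 1 with the study's criteria and 1 of 14 with counts summed per locus, and it ran from 1 to 11 when single libraries were left out. For GA in NH-JS2 the count ran from 0 to 3, and for GA in NH-JS1 and for the line difference in GA effect it was 0 throughout. Replicate numbers did not pair the libraries (correlations of deviations -0.08 to 0.12). With the replicate number as a block 6 unigenes were called without GA, 2 with GA and 0 for GA. Many log2 fold changes near 0, none of them called, changed sign when single libraries were left out. The number of the 45 above 0 for GA in NH-JS1 was 15 in place of 3 without NH-JS1_GA replicate 1, and for the line difference in GA effect 29 in place of 6 without NH-JS2 replicate 2. Among the most abundant unigenes of each locus and the sums of LHCA1 and LHCB4.3 in the comparisons recomputed singly, the sign changed for LHCA3 TBIU058963 (-0.074 to 0.117 without GA, -0.061 to 0.040 with GA), LHCB3 TBIU026231 (-0.089 to 0.173 without GA, -0.182 to 0.088 with GA), LHCB6 TBIU056921 (-0.270 to 0.142 without GA), LHCB1.4 TBIU007135 (-0.020 to 0.214 with GA), LHCA4 TBIU048731 (-0.038 to 0.162 with GA) and the LHCA1 sum for GA in NH-JS1 (-0.141 to 0.032). Over the TMM-scaled library size the antenna share of NH-JS2 replicate 2 was 6.998%. The causes were not tested.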
